A study of Mus musculus with 18 samples.

Results

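PROMPTs (promoter upstream transcripts) are short non-coding RNAs that start near the promoter of a gene and run away from it on the opposite strand. The members described here are PROMPTs that were detected beside coding genes with little transcription of their own in E14 murine embryonic stem (ES) cells. A member has a PROMPT baseMean of 1 or more and shares its symbol with a listed gene, nearly always a coding one, whose baseMean is below 10. The symbols of numbered zinc finger (Zfp) genes were left out. The baseMean is the mean over all libraries of the read count after scaling for sequencing depth. By this rule 659 of 32253 listed PROMPTs were members, which is 6.06% of the 10875 PROMPTs with a baseMean of at least 1. Leaving out the Zfp symbols removed 5 others. The members were thus chosen by the PROMPT and gene baseMeans, which are given as a description.

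The data were TT-seq, in which RNA made during a 5 min pulse of 4-thiouridine is purified and sequenced, so that unstable transcripts are also seen. There were 18 libraries, 3 from each of 6 conditions. Untagged cells and 2 homozygous clones with a mini-AID and V5 tag on SPT16, a subunit of the histone chaperone FACT, were treated for 24 h with 0.1% ethanol or with 3-indole acetic acid (IAA), an auxin that leads to degradation of the tagged protein. All cells carried osTIR1, the plant receptor needed for this degradation, and grew in medium with serum, LIF and 2i. The labels give the IAA dose as 500 nM, whereas the methods give it in µM. Each tagged line came from 1 clone. The values used here pool all libraries, control and SPT16-depleted alike, so they carry no replicate error and answer no question about depletion. Libraries' own values were not used here. The 8 ES cell markers checked, among them Pou5f1 and Nanog, had gene baseMeans of 5985 to 72140, while 5 fibroblast markers were at 1.97 to 25.7, 3 trophoblast markers at 4.03 to 134 and 3 primitive endoderm markers at 10.2 to 455.

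Transcription from most mammalian promoters starts in both directions. The upstream strand then carries a PROMPT that is terminated early and degraded by the nuclear exosome, and its level usually goes with that of the gene. Promoters of widely used genes are often CpG-rich, whereas many tissue-specific genes that are silent in ES cells have CpG-poor promoters. RNA polymerase also continues past the cleavage site at the end of a gene before it terminates, so nascent RNA is found downstream of transcribed genes. Transcription on the PROMPT strand of a silent gene can therefore belong to a promoter or to a neighbour.

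The promoters of the members with the highest PROMPT baseMean are shown for 4 kinds of surroundings, because their base composition is taken up again with the results. They are RefSeq promoters on GRCm38.p6, from 250 bases before to 50 bases after the RefSeq start of the gene, read 5′ to 3′ on the strand of the gene, with each CpG in capitals. That of Erv3, a gene of retroviral origin, was left out, and a member without an entry within 300 bases of its Gencode start was passed over. Where the first promoter belonged to a gene lying inside another coding gene on its strand, the first one that did not is shown as well.

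Ate1 and 4931429L15Rik each have a gene on the PROMPT strand that starts within 1 kb of their own start. For Ate1 it starts upstream. For 4931429L15Rik it starts inside the gene and runs out across the promoter. Ate1, which codes for an arginyltransferase, lies inside Fgfr2 (chr7:130520320-130520619, minus strand, PROMPT baseMean 57.002). No other coding gene on the same strand covers 4931429L15Rik (chr9:46319937-46320236, minus strand, PROMPT baseMean 4.91). Both promoters hold 5 CpGs.
Ate1: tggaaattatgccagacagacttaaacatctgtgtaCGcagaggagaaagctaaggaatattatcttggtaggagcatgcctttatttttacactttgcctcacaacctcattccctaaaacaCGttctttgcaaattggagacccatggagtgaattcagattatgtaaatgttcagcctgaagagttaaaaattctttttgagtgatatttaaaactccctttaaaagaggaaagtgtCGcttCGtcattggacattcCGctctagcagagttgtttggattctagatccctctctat
4931429L15Rik: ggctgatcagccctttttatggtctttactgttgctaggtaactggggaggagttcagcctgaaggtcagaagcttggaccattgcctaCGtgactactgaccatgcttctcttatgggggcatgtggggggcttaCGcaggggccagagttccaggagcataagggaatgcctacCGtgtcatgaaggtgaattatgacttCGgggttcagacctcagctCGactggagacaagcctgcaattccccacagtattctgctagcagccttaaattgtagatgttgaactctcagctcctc

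The window of Celf3, which codes for a regulator of alternative splicing, is crossed on the PROMPT strand by the body of Riiad1 (chr3:94478045-94478344, plus strand, PROMPT baseMean 42.8). Ypel4, a member of the yippee-like family, had the highest PROMPT baseMean of all members, 373, and lies past the end of a transcribed gene (chr2:84733954-84734253, plus strand). Its promoter had an observed over expected CpG ratio of 0.12.
Celf3: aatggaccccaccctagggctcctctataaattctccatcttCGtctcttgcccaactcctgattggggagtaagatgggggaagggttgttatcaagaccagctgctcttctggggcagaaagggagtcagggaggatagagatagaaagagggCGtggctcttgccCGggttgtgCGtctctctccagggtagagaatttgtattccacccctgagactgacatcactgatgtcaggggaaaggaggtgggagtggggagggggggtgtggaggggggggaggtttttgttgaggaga
Ypel4: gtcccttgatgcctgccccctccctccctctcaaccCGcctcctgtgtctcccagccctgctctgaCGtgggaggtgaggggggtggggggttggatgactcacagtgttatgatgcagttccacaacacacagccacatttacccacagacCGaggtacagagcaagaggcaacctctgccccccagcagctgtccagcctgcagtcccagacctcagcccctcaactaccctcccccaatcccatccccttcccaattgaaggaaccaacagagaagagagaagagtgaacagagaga

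Pet117 and Tac4 had no annotated gene on the PROMPT strand in the window or ending less than 10 kb before it. Pet117, which codes for a cytochrome c oxidase assembly factor, lies inside Kat14 (chr2:144368733-144369032, plus strand, PROMPT baseMean 122). It holds 30 CpGs and has a ratio of 0.857. Tac4, a tachykinin precursor, lies outside other coding genes on its strand (chr11:95261279-95261578, plus strand, PROMPT baseMean 68.5) and holds 1 CpG. Its nearest coding gene end on the PROMPT strand is that of Kat7, at a gene baseMean of 18373, 12.7 kb before the window.
Pet117: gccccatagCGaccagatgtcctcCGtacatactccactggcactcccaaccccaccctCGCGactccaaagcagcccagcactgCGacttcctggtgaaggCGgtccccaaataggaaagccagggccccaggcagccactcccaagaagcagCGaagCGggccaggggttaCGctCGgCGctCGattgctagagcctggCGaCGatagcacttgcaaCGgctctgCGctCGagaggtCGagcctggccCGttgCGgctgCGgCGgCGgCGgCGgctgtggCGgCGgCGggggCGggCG
Tac4: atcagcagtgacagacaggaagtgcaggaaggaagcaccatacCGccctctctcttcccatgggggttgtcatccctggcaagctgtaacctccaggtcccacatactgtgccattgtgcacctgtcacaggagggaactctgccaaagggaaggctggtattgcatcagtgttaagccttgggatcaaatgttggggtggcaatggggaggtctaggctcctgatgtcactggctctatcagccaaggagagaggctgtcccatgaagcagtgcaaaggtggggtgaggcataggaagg

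The members' PROMPT levels were low and uneven. Their baseMean had a median of 3.50, quartiles of 1.69 and 9.14 and a highest value of 373. It was below 2 for 213 members, at least 10 for 158 and at least 100 for 21. At the minimum, a PROMPT had the equivalent of 18 normalized reads over the 18 libraries. The members together held 3.81% of the summed PROMPT baseMean, and the 20 highest members held 37.4% of the members' sum. Just inside the PROMPT threshold lay Nkx2-5 at 1.0001, Fem1al at 1.004 and Sgca at 1.009, and just outside it Gm9758 at 0.997, Lbx1 at 0.994 and Aqp5 at 0.994. For the gene threshold, Bean1, Aqp6 and Zpbp2 lay just inside with gene baseMeans of 9.94, 9.90 and 9.86, and Tymp, Ang2 and Adam33 just outside at 10.01, 10.03 and 10.04.

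Of 5515 genes with a baseMean below 10 and a PROMPT in the table, leaving out Zfp symbols and symbols with several gene rows, 11.8% had a PROMPT baseMean of at least 1. Without the genes that lie inside another gene, described next, 497 of 5011 did, or 9.92%. Among these, the share was 2.47% of 1093 genes listed at 0, 6.07% of 643 genes up to 0.1, 9.56% of 1486 genes from 0.1 to 1 and 16.2% of 1789 genes from 1 to 10. It went on to 28.9% at 10 to 100, 52.2% at 100 to 1000 and 69.0% at 1000 to 10000.

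The label "weakly transcribed" did not hold for every member. Of the 652 members with 1 gene row that could be placed on the annotation, 155 had at least 50% of their span inside another coding gene on the same strand, and 109 of these 155 were listed at a gene baseMean of 0. In the whole gene table, 390 of 393 genes that lie completely inside such a gene were listed at 0, against 5.76% of 20425 genes without any overlap. The counting program leaves out, unless told otherwise, reads that fall on more than 1 gene, and its part in these values was not tested. Since nearly every gene completely inside another is listed at 0, that level was not taken as a measure of transcription for the nested genes, and results are given with and without them. Among them were genes that dividing cells use, such as Rpl13, a ribosomal protein gene with a PROMPT baseMean of 6.798, Cdt1, a replication licensing factor at 107, and Map1lc3b, an autophagy gene at 8.70. These belong to 17 members inside Gm20388, a gene model of 4435 kb on chromosome 8. Fgfr2 covered 5 members, as did Pcdhga1, the first gene of the gamma protocadherin cluster.

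A further 6 members had several gene rows under 1 symbol, and 5 of these symbols had a row of at least 10. Ddit3, a stress-induced transcription factor with a PROMPT baseMean of 119, had rows at 0 and at 801, and St6galnac2, a sialyltransferase with a PROMPT baseMean of 263, had rows at 0 and at 424. Lhb, Gcat and Ptp4a1 had their higher row at 19.1, 209 and 62.8, and each row of Ndor1 was below 10. These symbols were not used for the comparisons of position and sequence. Of the 653 members with 1 gene row, 1 was not found in the annotation used. Among the members' gene rows that were found, 659 were annotated as coding and 1 as a long intergenic non-coding RNA.

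**Figure D1:**
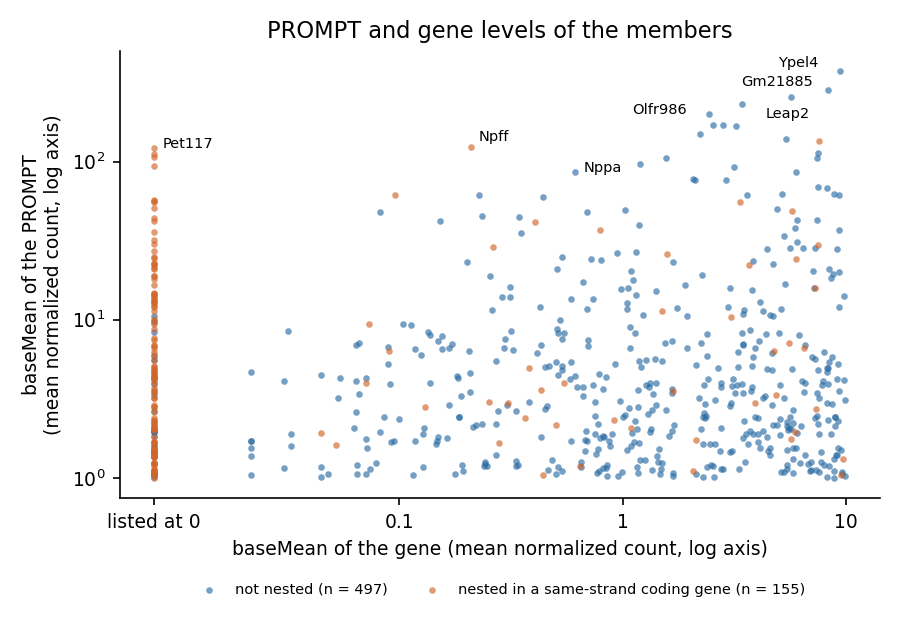
PROMPT baseMean (vertical, log axis) against gene baseMean (horizontal, log axis, genes listed at 0 set at the left edge) for the 652 placed members with 1 gene row, 1 point each. The 155 nested members gather at a gene level of 0, where 109 of them lie, while the highest PROMPTs, such as Ypel4, Gm21885 and Leap2, belong to genes that are not nested.

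Since the rule asks for a PROMPT at 1 or more and a gene below 10, it favours members whose PROMPT is the higher of both readouts, and the following shares only describe them. The PROMPT baseMean was above the gene baseMean in 78.1% of the 652 members, and in 73.0% without the nested ones. Both tables were scaled separately, as the lowest repeated baseMean, that of features with 1 read in 1 library, was 0.0266 among PROMPTs and 0.0216 among genes, so such ratios are approximate. Per kb, with 1 kb for the PROMPT and the span of the gene, the PROMPT was higher in 95.6% of the members and in 94.2% without the nested ones. The median ratio of PROMPT per kb to gene per kb was 18.04 in members that are not nested and not listed at 0. Leap2, which codes for a liver peptide that blocks the ghrelin receptor, had a gene baseMean of 5.67 and a PROMPT baseMean of 255. Nppa, the gene of atrial natriuretic peptide, stood at 0.615 with a PROMPT at 85.7. Olig1, a glial transcription factor gene, was among the members where the gene was higher, at 5.82 against 1.54.

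The annotated neighbour found most often on the PROMPT strand of the members was a gene that ends nearby. Ends were searched over 10 kb but divergent starts and gene bodies over about 1 kb, so these shares are not like for like. A window of 1 kb upstream of the annotated 5′ end of each gene was used. It was placed with Gencode vM21, whereas the authors counted with vM25, so it can differ from the region they counted. On the PROMPT strand, a gene ended less than 10 kb before the window in 186 of 652 members, or 28.5%, and in 28.4% without the nested ones. Such a gene lies tail to tail with the member's gene or overlaps it, and transcription past its end would run antisense through that gene towards the window. The share was 10.2% of 4863 genes below 10 whose PROMPT was below 1, 28.6% of 2476 PROMPTs of genes at 10 to 1000, and 10.0% of 4432 PROMPTs of genes above 1000. Gene starts on the PROMPT strand within 1 kb of the gene's own start, upstream of it or inside the gene, were classed as divergent. They were found for 3.37% of the members, against 1.58%, 8.56% and 12.2% in these 3 sets. A gene body crossed the window in 2.45% of the members. The remaining 65.6% had no annotated gene in either place.

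Where several genes ended before a window, the one with the highest baseMean was taken. Of the 186 genes so taken for the members' windows, 132 were coding genes with a value, with a median baseMean of 1178, and 70 had at least 1000. In the genes below 10 whose PROMPT was below 1, 222 of 497 such neighbours had a value, with a median of 1.36, and 16 had at least 1000. The members' median PROMPT baseMean was 6.08 past a gene end, 2.88 with a divergent start, 3.41 with a crossing gene body and 2.82 with none. The description deposited with the tables says that PROMPTs near other coding transcripts were left out, which limits the divergent coding neighbours that can be found. Of genes with no PROMPT in the table, 51.4% had a coding gene on that strand in the window, against 6.67% of genes with a PROMPT.

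**Figure D2:**
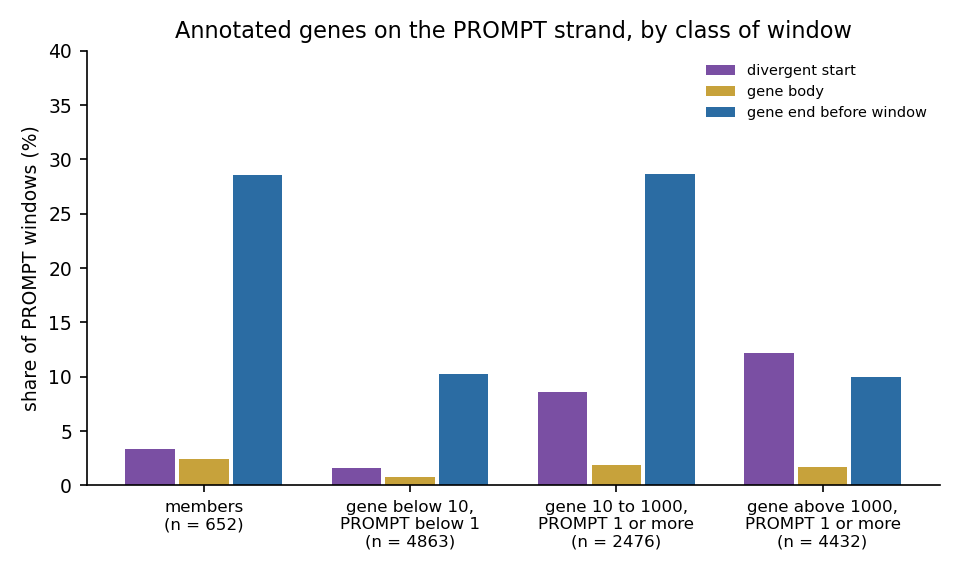
Share of PROMPT windows (vertical, %) with an annotated gene on the PROMPT strand, by class of gene (colours), for the members and 3 other sets (horizontal). Gene ends before the window were found for 28.5% of the members and 28.6% of PROMPTs of genes at 10 to 1000, and for 10.2% and 10.0% in the other sets.

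The arrangement can be followed gene by gene in the highest members. Of the 20 highest that are not nested, 14 had a gene end within 10 kb and 6 had no annotated gene in either place. A gene end was found for 28 of the 50 highest and 47 of the 100 highest. For 15 of the 20, the nearest coding gene end lay within 20 kb and belonged to a gene with a baseMean of at least 1000. Leap2 has its window at chr11:53423171-53424170 (mm10), 1.34 kb past the end of Aff4, which codes for a scaffold of the super elongation complex and had a baseMean of 21027. The window of the gene model Gm21885, PROMPT baseMean 283, lies 6.02 kb past Luc7l3, a splicing factor gene at 16169.

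Other high members lie past genes whose levels spanned a wider range. Ypel4 lies 8.11 kb past the gene model Gm19426, which had a baseMean of 1198. Gp1ba, the platelet receptor subunit, had a PROMPT baseMean of 169 and lies 5.08 kb past Slc25a11, a mitochondrial carrier gene at 855. Gm5767 had 150 and lies 8.83 kb past Usp7, a deubiquitinase gene at 58051. Gng13, a G protein subunit of taste cells, had 138 and lies 1.76 kb past Chtf18, a clamp loader gene at 1818. For Rtl1, an imprinted gene derived from a retrotransposon, the PROMPT baseMean was 168, and the annotated gene ending before its window was a microRNA, Mir433. Maternally expressed non-coding RNAs of the same imprinted cluster are known to run antisense to Rtl1.

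The remaining high members were Cox8b at 106, a muscle form of a cytochrome c oxidase subunit, 1.80 kb past the proteasome gene Psmd13, and Sult1a1 at 113, a sulfotransferase, 3.51 kb past Sgf29, which codes for a SAGA subunit. The nested members Prss53 at 135 and Npff at 124, the latter a neuropeptide gene, lie 4.98 kb past Zfp646 and 1.27 kb past Tarbp2. Cdt1 lies 6.62 kb past Aprt. Beyond 10 kb, Armh2 had a PROMPT baseMean of 232 at 10.6 kb from the end of Gmnn, the gene of the replication inhibitor geminin, and Opn1sw, the short-wave opsin gene, had 105 at 11.4 kb from Calu. Nanp, a sugar phosphatase gene at 112, and Pet117 are nested and had no coding gene end within 100 kb.

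The share of genes below 10 that were members went with the distance to, and the level of, the nearest coding gene end on the PROMPT strand. This was examined after the data were seen, in genes that are not nested. With an end within 10 kb, the share was 6.96% of 158 genes where the ending gene was below 10, 27.9% of 43 where it was at 10 to 100, 54.9% of 51 where it was at 100 to 1000, and 80.6% of 67 where it was above 1000. Past ends of genes above 1000, it was 16 of 16 at 2 to 5 kb, 69.2% of 39 at 5 to 10 kb, 62.2% of 98 at 10 to 20 kb, 27.8% of 187 at 20 to 50 kb and 19.5% of 164 at 50 to 100 kb. With no coding gene end within 100 kb, 5.10% of 2390 genes were members. Spearman's rho across regions was taken in the 105 members that are not nested with an end within 10 kb. Between the PROMPT baseMean and the ending gene's baseMean per exonic kb it was 0.68. It was 0.61 with that gene's baseMean itself and -0.24 with distance. Over the 375 with an end within 100 kb, these values were 0.34, 0.34 and -0.33. The PROMPT baseMean also chose these members, and some share an ending gene, so the values only describe them. Reads that start at the promoter and reads that pass through were not told apart here.

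**Figure D3:**
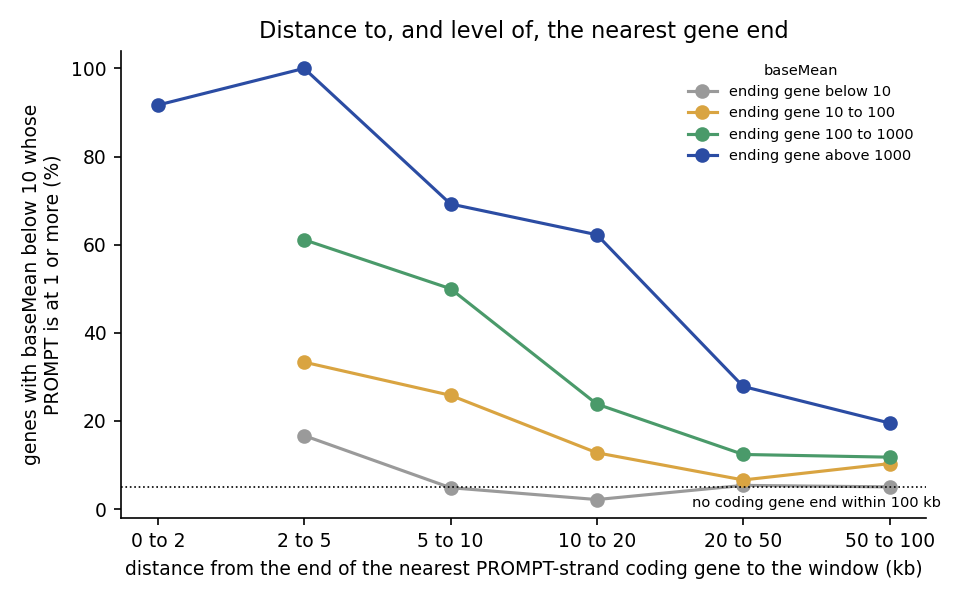
Share of genes with a baseMean below 10 that were members (vertical, %) by the distance from the end of the nearest coding gene on the PROMPT strand to the window (horizontal, kb bins) and by the baseMean of that gene (colours), for genes that are not nested; points with fewer than 9 genes are not drawn, and the dotted line is 5.10% for genes with no such end within 100 kb. Past genes above 1000 the share went from 91.7% of 12 genes within 2 kb to 19.5% at 50 to 100 kb, while past genes below 10 it was 16.7% at 2 to 5 kb and from 2.15% to 5.36% farther out.

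In a number of places, neighbouring members shared a strand. Of the 497 members that are not nested, 116 fell in 46 runs in which windows on 1 strand were up to 50 kb apart, and such members are not independent of one another. A coding gene end was shared by 2 or more members in 30 cases, and in 25 of these the nearest member had the highest PROMPT baseMean. This held for 14 of 17 ending genes of at least 1000 and for 11 of 13 below. In all, 70 members shared these ends, and genes whose PROMPT was below 1 are not counted. The counts were not set against a random order of the members, so they only describe them. The runs named next were picked after their values were seen. Past Gabbr1, a GABA receptor gene at 8954, the PROMPT baseMean was 96.4 for Olfr90 at 13.4 kb, 24.3 for Olfr91 at 23.2 kb and 3.08 for Olfr92 at 45.0 kb. Past Clec16a, an autophagy gene at 16331, the sperm chromatin genes Tnp2, Prm3, Prm2 and Prm1 had 4.46, 2.42, 2.14 and 2.88 at 43.8 to 61.0 kb.

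In other runs the nearest coding gene end was far away, came from a gene with little transcription, or was lacking. Olfr1495, Olfr1494, Olfr1493-ps1 and Olfr1491 had PROMPT baseMeans of 36.7, 17.4, 4.28 and 4.54, and the nearest coding gene end was that of Olfr1497, listed at 0.142. On chromosome 19, 7 members from Olfr1424 to Olfr1555-ps1 followed each other on 1 strand with 1.40 to 23.1. The first 3 of them, Olfr1424, Olfr1425 and Olfr1426, lie 68.6, 83.6 and 97.9 kb past Osbp, a lipid transfer gene at 5513, and the others had no coding gene end within 100 kb. On chromosome 9, Gm11168, Gm10721, Gm10720, Gm10718, Gm17535 and Gm10715 had 1.06 to 13.0, and the windows of all 6 are crossed on the PROMPT strand by the body of the long non-coding RNA gene Gm26870. These last are gene models close to the start of the chromosome's assembled sequence, and whether near-identical copies share their reads was not tested. Olfr986 at 199 and Tmem225 at 59.5 lie on the same strand of chromosome 9, with windows that start at 40179920 and 40147122, and have no coding gene end within 100 kb.

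In all, 102 members that are not nested had no PROMPT-strand gene in the window or ending less than 10 kb before it. Nor did they have a coding gene end on that strand within 100 kb, and genes on the other strand were not looked for. The median PROMPT baseMean of these 102 was 2.28, and 10 of them reached 10. After Olfr986 the highest were Erv3 at 77.6, Olfr718-ps1 at 68.8 and Slco1c1, a thyroid hormone transporter gene, at 62.0. Il3, the cytokine interleukin 3, had 24.0 beside a gene at 0.797, and the interferon gene Ifna13 had 10.6 beside a gene listed at 0. An unannotated transcript on the PROMPT strand was not searched for.

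A divergent or crossing gene was rare but was found for some high members. Ate1 has the long non-coding RNA gene Gm44647 starting divergently, and BB014433, at a PROMPT baseMean of 20.2, has Gm45274. Beside Celf3 the crossing gene Riiad1 had a baseMean of 247. The window of Gm28308, nested in Hoxa3 with a PROMPT baseMean of 29.9, is crossed by the antisense RNA gene Hoxaas3. Lhx1, a LIM homeobox gene for head and kidney development, had 4.19 and has Lhx1os starting 125 bases upstream. In such windows, the reads of the PROMPT and of the annotated gene cannot be told apart.

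The promoters of the members divided by nesting. A promoter was taken as CpG-rich at an observed over expected CpG ratio of at least 0.6 and a GC content of at least 50%, over 300 bases around the Gencode start. This was so for 87 of 652 members, or 13.3%, but for 63 of the 155 nested members, 40.6%, and for 24 of the 497 others, 4.83%. The share was 5.26% of genes below 10 whose PROMPT was below 1, 39.1% of PROMPTs of genes at 10 to 1000, 71.1% of those of genes above 1000, and 39.0% of all 17724 coding genes with a PROMPT in the table. Without nested genes, 3.94% of genes below 10 whose PROMPT was below 1 were CpG-rich, and their median ratio was 0.148, against 0.181 in the members. Nested members stood at 0.579. Nested genes whose PROMPT was below 1 were not examined as a set of their own, here or for the motifs below. Among members that are not nested, the median PROMPT baseMean was 2.57 with a CpG-rich promoter and 3.27 without, and the highest values were 15.5 and 373.

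**Figure D4:**
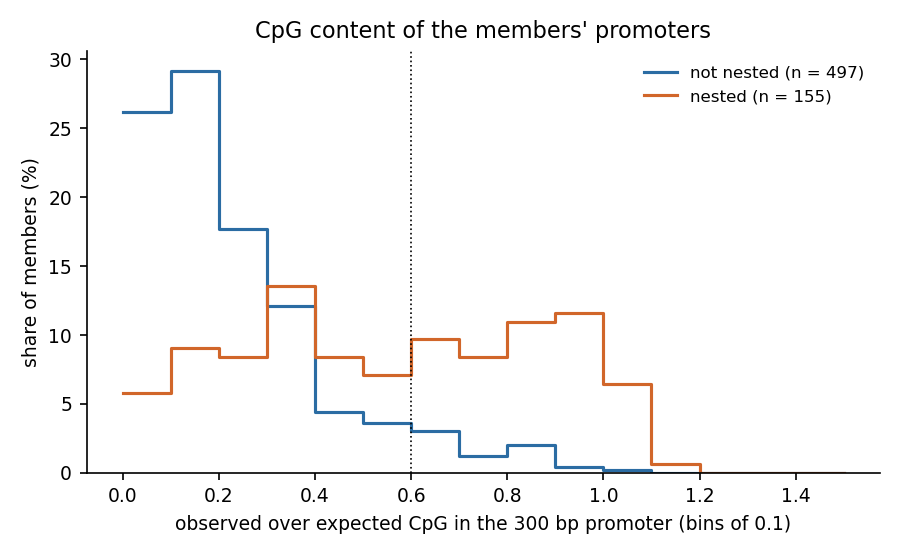
Observed over expected CpG ratio of the members' promoters (horizontal, bins of 0.1) as a share of the members (vertical, %), for the 497 members that are not nested and the 155 nested ones. The dotted line marks 0.6. The first group is mostly below 0.4, with a median of 0.181, and the second is spread up to above 1, with a median of 0.579.

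Of the 24 CpG-rich members that are not nested, 3 were in the list of developmental transcription factors, Lhx1, Olig1 and Bhlhe23. The others named here were picked after their values were seen. They were Egr2, a zinc finger factor of hindbrain and Schwann cells, at a PROMPT baseMean of 1.14, Insm2 at 2.70 and Wnt2b, a WNT ligand, at 2.45. The highest of the 24 were the gene model Gm10775 at 15.5 and Fam131b at 7.10, and both have a gene end within 10 kb of the window. Lrrc4b, a synaptic adhesion gene, had 6.24 and Gprin1 5.79. Neither had a gene on the PROMPT strand in the window or ending less than 10 kb before it.

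TATAAA and GGGCGG were divided in the same way. TATAAA, the core of the TATA box, was searched on both strands of the 300 base promoter. It was found in 22.1% of the members that are not nested, 7.10% of the nested ones and 13.2% of all coding genes with a PROMPT in the table. In genes below 10 that are not nested and whose PROMPT was below 1, the share was 25.1%. GGGCGG, the GC box bound by Sp1, was found in 13.5%, 48.4% and 41.7%, and in 8.82% of those genes below 10. CCAAT was found in 36.2%, 43.9% and 39.0%, and in 43.4% of those genes below 10. On the PROMPT strand of the 1 kb window, the polyadenylation signal AATAAA was found in 37.3% of all 652 members, 51.3% of genes below 10 whose PROMPT was below 1, 34.1% of PROMPTs of genes at 10 to 1000 and 42.4% of all. GGTAAG, the letters of a strong 5′ splice site, was found in 14.9% of the members and 14.04% of all. Matches of TATAAA or CCAAT can share bases with AATAAA, and a match is not shown to be a site.

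By gene family, members were found in every list examined except collagens and matrix genes. In the 13 lists of genes by symbol, the share of genes below 10 that were members lay between 0% and 16.7%, against 11.8% over all. Counts without nested genes are given next, where the share over all was 9.92%. The lists were not matched for gene level. Among all genes that are not nested, the share went from 2.47% for those listed at 0 to 16.2% for those at 1 to 10. Chemosensory receptors had 82 of 1438 genes, or 5.70%, with a median PROMPT baseMean of 3.05, and Olfr986 and Olfr90 were the highest. Secreted signals and cytokines had 15 of 107, or 14.02%, led by Il3. Of other G protein-coupled receptors, 5 of 41 were members, led by Gpr151 and Gpr61, an orphan receptor at 7.15.

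Developmental transcription factors had 7 of 67 genes, or 10.4%, and with the nested genes 11 of 76. All had low PROMPT levels, with a median of 1.51 and a highest value of 4.19 for Lhx1, and with the nested genes 4.39 for Neurod1. Germline and testis genes had 9 of 82, with Spata45 at 16.0 and Tex13c3 at 9.65. Solute carriers and ABC transporters had 4 of 59, with Slco1c1 and Slc46a2, the latter at 2.20. Ion channels had 3 of 41, with Kcne2 at 2.67 and Chrng at 1.90.

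Lists of skin, blood and liver genes had few members. Keratins and skin barrier genes had 5 of 130, led by Krtap5-5 at 10.7 and Krtap28-10 at 4.58. Immune cell surface genes had 2 of 97, Fcer2a at 3.18 and Cd8a at 1.52. Cytochrome P450 and UGT enzymes had 3 of 60, with Cyp2w1 at 7.33 and Cyp17a1, a steroid hydroxylase, at 1.92. Collagens and matrix genes had 0 of 12. Cadherins and synaptic adhesion genes had 1 of 10, but 9 of 54 with the nested genes, most of them of the clustered protocadherins, such as Pcdhgc5 at 13.95 and Pcdhga1 at 6.63. Genes named only by clone or model had 95 of 832, led by Gm21885 and Gm5767, and genes in none of the lists had 266 of 2035, or 13.1%.

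**Figure D5:**
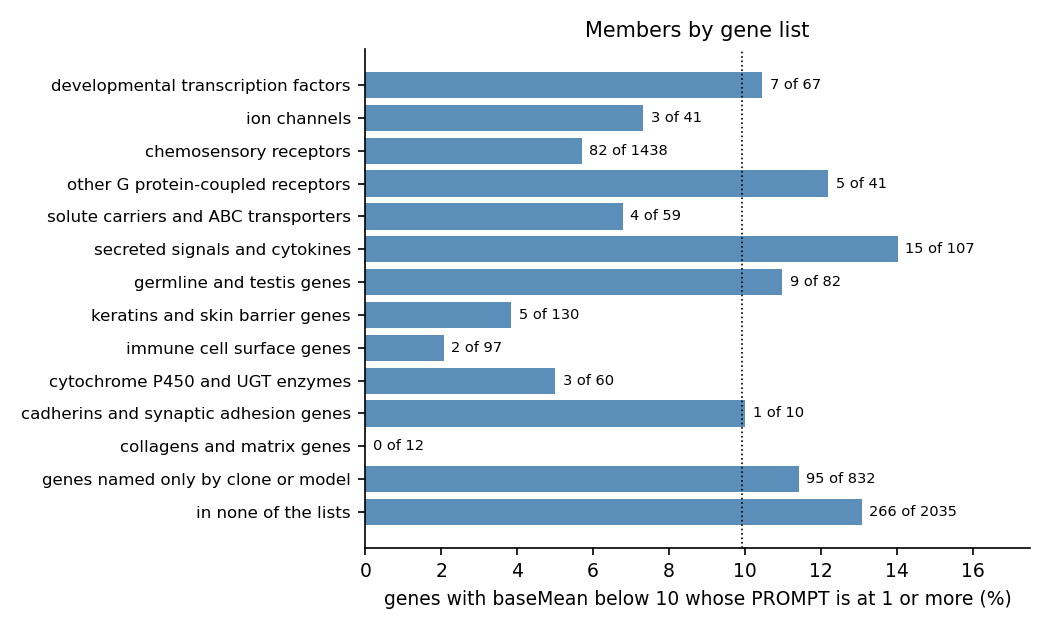
Share of genes with a baseMean below 10 whose PROMPT was at 1 or more (horizontal, %) for each gene list (vertical), without nested genes, with the number of members and of genes beside each bar; the dotted line is 9.92%, the share over all such genes. Immune surface genes (2 of 97), keratins (5 of 130) and chemosensory receptors (82 of 1438) lie below the line, and secreted signals (15 of 107) above it. The lists were not matched for gene level.

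Members were found on every autosome and on the X chromosome. Without nested genes, chromosome 11 had 56 members of 332 genes below 10, or 16.9%, and chromosome 19 had 28 of 153, or 18.3%. The share was 6.35% of 646 genes on chromosome 7 and 5.05% of 317 on the X chromosome. Of the nested members, 23 were on chromosome 8, which holds Gm20388.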

How the data were processed

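Libraries were assigned to groups by their GEO labels, and the values used pool all of them. Reads were processed by the authors with Trim Galore, STAR (mm10, unique alignments) and featureCounts (read pairs, by strand, Gencode vM25), without an expression filter. The labels also name HTSeq, deepTools and DESeq2, without versions. PROMPTs were taken by the authors within 1 kb upstream of and antisense to annotated starts, leaving out those within 1 kb of other coding transcripts. The signal used is the deposited baseMean, the authors' mean over all libraries of counts divided by DESeq2 size factors, and the 2 tables (PROMPTs and genes) were normalized separately. Further deposited columns hold the authors' own comparison (log2 fold change, its standard error, p-value and adjusted p-value) and were not used. Hence no test was made, and depth per library is not known here.

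PROMPTs were joined to genes by symbol. Windows, genes and exons came from Gencode vM21, and sequence from GRCm38.p6, the mm10 assembly. Of 659 members, 475 had a promoter entry in the RefSeq table, and 374 had one within 300 bases of the Gencode start. The members and the lists were chosen with earlier results of these data known. The genes named were the 20 members with the highest PROMPT baseMean, the first 2 of each list and of each class of surroundings, and the 3 on each side of each threshold, and others are said to have been picked later. The surroundings of 1 of these members are not reported here. Nesting and gene ends were examined after the data were seen. Alternatives tried were other thresholds, windows, gene classes and CpG limits, per kb values and leaving out nested genes. Software was pysam 0.24.0, pandas 2.3.3, numpy 2.4.6, matplotlib 3.10.9 and scipy 1.17.1 in Python 3.11.15.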

Additional observations from a re-analysis of the deposited data

How the results depend on the processing

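No paired analysis was possible because the values are means over all libraries, and for the same reason no replicate could be left out. The number of members stayed within 1.5 times of 659 under each alternative except a PROMPT minimum of 5, which left 253. The share of genes below 10 that were members fell from 11.8% to 8.01% and 4.53% at PROMPT minimums of 2 and 5, and was 9.92% without nested genes. The members' median PROMPT baseMean became 6.08 and 13.9 at these minimums. The PROMPT was above the gene in 84.4% of members per kb of exons and in 95.6% per kb of span, and in 73.0% without nested genes. An annotated gene in the window on the PROMPT strand was found for 5.83% of members, which became 8.90% in a window of 2000 bp, 2.15% for coding genes only, 3.68% for exons only, 3.60% at a PROMPT minimum of 5 and 3.82% without nested genes. A gene end before the window, found for 28.5%, became 20.6% for coding genes only, 9.51% and 36.8% for the nearest coding gene within 5 kb and 20 kb, and 32.4% and 42.4% at PROMPT minimums of 2 and 5. The share of CpG-rich promoters became 8.74% at a ratio of 0.75 and a GC content of 55%, and 4.83% without nested genes. The alternatives without nested genes, without symbols of several gene rows, of gene ends and of any annotated start were chosen after seeing the data. The remaining alternatives moved a share by less than its 95% exact binomial interval, which covers counting error only. PROMPTs close to the minimum rest on few reads per library, and without replicate values the error of a level is unknown.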
